A study of Mus musculus with 27 samples.

Results

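The 9 genes described here, Ttr, Enpp2, Kl, Folr1, Kcne2, Kcnj13, Clic6, Aqp1 and Otx2, are characteristic of the epithelium of the choroid plexus. They were chosen by name, with earlier results of these data known, and were measured in RNA from sorted CD11b+ brain cells. All 9 were found among the 53412 gene identifiers of the minocycline count table and among the 55421 of the enrichment table, and all 9 passed the filter on low counts in both tables. The study asked how minocycline, a tetracycline antibiotic, and environmental enrichment act on microglia of mice under CUMS, a chronic mild stress protocol used as a model of depression. By the labels, the tissues were the hippocampus (HC) and the prefrontal cortex (PFC).

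The minocycline experiment held 15 libraries. In the HC these were 3 of CUMS with minocycline (CUMS_M), 3 of CUMS and 2 of NAIVE controls, and in the PFC 3 of CUMS_M, 2 of CUMS and 2 of NAIVE. The enrichment experiment held 12 libraries, with 3 of CUMS with environmental enrichment (EE) and 3 of CUMS with vehicle (VEH) in each region. Both groups of the enrichment experiment had therefore undergone CUMS, and it had no unstressed group. The labels name no vehicle for the CUMS group of the minocycline experiment. All animals were of the strain labelled C57BJ6, and every library came from cells sorted by flow cytometry for CD11b, a surface integrin of microglia and other myeloid cells. The labels give no age and do not say whether replicates, or the 2 regions, came from separate animals, so p-values measure the spread between these samples, which may be technical. Library totals were 7.87 to 15.3 M counts for the minocycline experiment, and 19.5 to 23.9 M for enrichment. The tables were scaled separately, and tests were made only within a table.

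The choroid plexus is a folded epithelium over fenestrated capillaries that hangs in the brain ventricles and secretes most of the cerebrospinal fluid. In mice the lateral ventricle, which holds a choroid plexus, runs along the hippocampus. Its epithelial cells move ions and water into the fluid through channels and pumps, take up nutrients by receptors on the blood side, and secrete carrier proteins. They are not myeloid cells and are not known for carrying CD11b. The plexus also holds its own CD11b+ macrophages.

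The libraries did carry the markers of the sorted cells. A list of 10 microglial genes, among them Cx3cr1, P2ry12 and Tmem119, summed to between 34730 and 55450 CPM in every library. CPM, used throughout, are counts per M of TMM-scaled library size. Genes of region-specific neurons could not check the region labels: Neurod1, Fibcd1, Emx1 and Tbr1, chosen after their values were seen, had at most 13 counts in any library of either region. One library went against the others of its region before any test was made. PFC CUMS_M replicate 3 had a summed level of the 9 genes of 782 CPM, against 9.53 to 40.6 CPM in the other 6 PFC libraries of its table. Test results of the 9 genes that rest on PFC CUMS_M replicate 3 are given with and without it.

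Upstream sequences of 2 genes and a motif match in another are shown because the 9 genes moved together across libraries and include a transcription factor. RefSeq promoter windows of GRCm38.p6 were found for 5 of the 9 genes (9 windows of 300 bases in all), and only bases before the start are printed. TAATCC, the core motif of the homeodomain factor Otx2, was searched on both strands (its reverse complement is GGATTA), in capitals here where it was found. It occurred in 1 of the 9 windows, which belongs to Otx2 itself, and in 7.06% of all 32851 promoter windows. A match is a description and not a binding site.
Otx2, chr14:48665303-48665332, minus strand, 30 bases around the match: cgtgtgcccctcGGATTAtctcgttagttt
Kcne2, chr16:92292139-92292388, plus strand, no match: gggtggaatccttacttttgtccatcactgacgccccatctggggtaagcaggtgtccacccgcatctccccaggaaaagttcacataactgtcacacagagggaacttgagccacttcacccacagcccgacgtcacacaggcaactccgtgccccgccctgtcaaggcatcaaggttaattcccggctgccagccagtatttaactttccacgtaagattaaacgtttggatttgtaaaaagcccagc
Kcnj13, chr1:87394730-87394979, minus strand, no match: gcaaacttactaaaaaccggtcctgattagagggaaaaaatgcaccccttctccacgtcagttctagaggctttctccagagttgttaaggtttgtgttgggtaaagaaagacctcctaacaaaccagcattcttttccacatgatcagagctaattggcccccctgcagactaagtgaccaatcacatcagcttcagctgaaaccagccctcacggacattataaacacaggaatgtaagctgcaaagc

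The genes lie on 8 chromosomes of GRCm38. Ttr is on chromosome 18, Folr1 at chr7:101858331-101870788, Kl at chr5:150952607-150993817, Aqp1 at chr6:55336432-55348555, Enpp2 at chr15:54838901-54952892, Kcnj13 at chr1:87386363-87394729 and Otx2 at chr14:48657677-48673819. Kcne2 (chr16:92292389-92298129) and Clic6 (chr16:92485736-92541243) are both on the plus strand of chromosome 16, with a distance of 187607 bases from the end of Kcne2 to the start of Clic6. Of the exon bases of Kcnj13, 49.1% are also covered on the opposite strand by exons of Gigyf2. The strand setting of the counting step was not given in the sources used here, so counts of Kcnj13 are less certain than those of the other genes. The same holds for 5.97% of the exon bases of Enpp2 and 3.65% of those of Otx2, and for 3.98% of those of Otx2 that another gene covers on its own strand.

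Across the 27 libraries the 9 genes were high together in some libraries and low together in others. The summed level was 1567, 1249 and 2082 CPM in HC CUMS_M replicates 1 to 3, 750 (replicate 1), 819 (replicate 2) and 2579 CPM (replicate 3) in HC CUMS, and 1196 and 1488 CPM in HC NAIVE. In the PFC of the same table it was 14.1, 9.53 and 782 CPM in CUMS_M, 35.1 and 33.6 CPM in CUMS, and 40.6 and 16.6 CPM in NAIVE. Apart from PFC CUMS_M replicate 3, which lies within the HC range, the 2 regions did not overlap. In the enrichment table the sum was 2701, 764 and 1518 CPM in HC EE, against 6.22, 6.16 and 308 CPM in HC VEH. In the PFC it was 21.4, 1508 and 300 CPM in EE, against 7.98, 879 and 929 CPM in VEH. There the regions overlapped, and within HC VEH, PFC EE and PFC VEH the highest library was 50.1, 70.5 and 116 times the lowest.

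**Figure D1:**
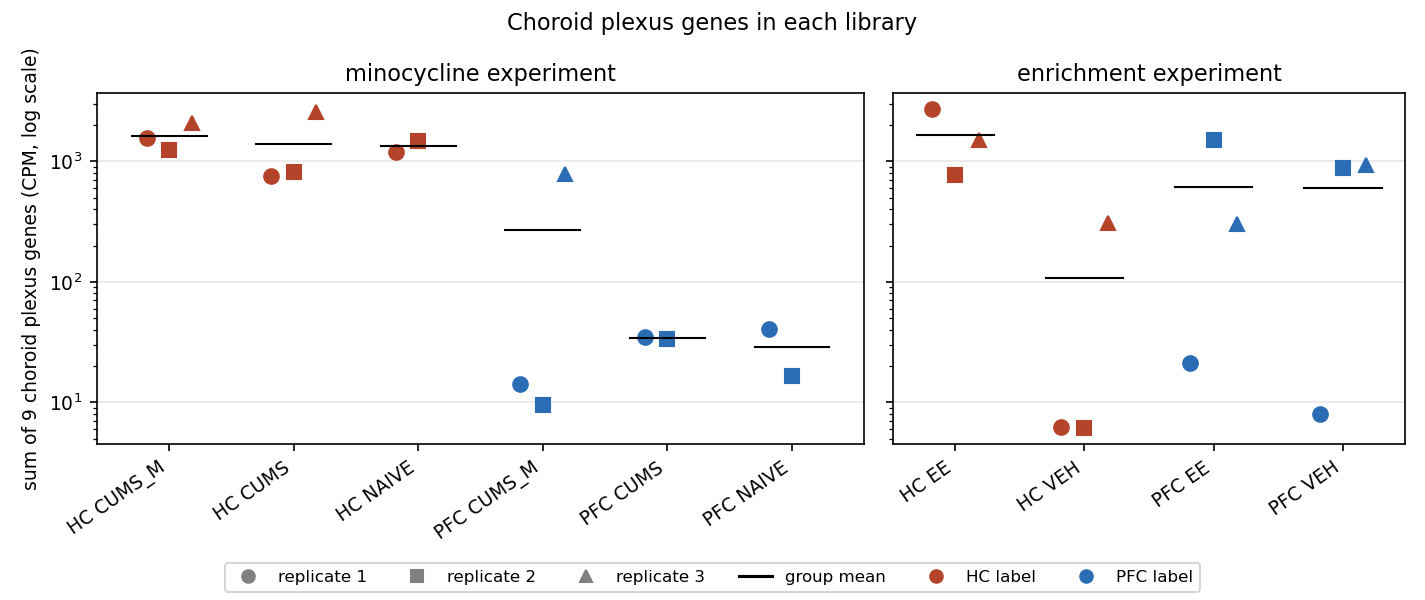
Summed CPM of the 9 choroid plexus genes in each library (log axis), by region and treatment group, with the minocycline experiment left and the enrichment experiment right; symbols are replicates and bars are group means. All 8 HC libraries of the minocycline experiment sit at 750 CPM or above, 6 of its 7 PFC libraries at 40.6 CPM or below, and the enrichment experiment has high and low libraries under both region labels.

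At least 1000 counts over the 9 genes were found in 17 libraries: 8 of 8 HC and 1 of 7 PFC libraries of the minocycline table, and 4 of 6 in each region of the enrichment table. These counts were at most a small share of a library. In HC EE replicate 1, the highest, they made up 0.282% of all counts (95% exact binomial interval 0.280 to 0.285%), and in HC VEH replicate 1, the lowest, 0.000599% (0.000501 to 0.00071%). These intervals cover counting error only. In bulk RNA of this kind, fewer cells of a type and less RNA per cell cannot be told apart.

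Ttr encodes transthyretin, the carrier of thyroid hormone and retinol-binding protein that the choroid plexus secretes into the cerebrospinal fluid. Its level was 1055, 940 and 1494 CPM in HC CUMS_M, 529, 577 and 1787 CPM in HC CUMS, and 929 and 1119 CPM in HC NAIVE. In the PFC it was 2.13, 1.19 and 566 CPM in CUMS_M, 1.16 and 2.04 CPM in CUMS, and 2.61 and 1.23 CPM in NAIVE. In 6 of 7 PFC libraries Ttr was thus below 3 CPM. In the enrichment table it was 1859, 465 and 1045 CPM in HC EE, against 0.283, 0.704 and 194 CPM in HC VEH, and 11.7, 1065 and 218 CPM in PFC EE, against 0.0991, 693 and 694 CPM in PFC VEH.

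Enpp2 encodes autotaxin, a secreted enzyme that makes lysophosphatidic acid, and is expressed by choroid plexus epithelium and also by oligodendrocytes. It had 423, 242 and 460 CPM in HC CUMS_M, 184, 200 and 634 CPM in HC CUMS, and 212 and 292 CPM in HC NAIVE. In the PFC it had 11.8, 8.22 and 168 CPM in CUMS_M, 33.3 and 30.2 CPM in CUMS, and 38.0 and 13.7 CPM in NAIVE. Enpp2 was the one gene of the 9 that kept a clear count in every library. In the 10 libraries with fewer than 1000 counts over the 9 genes it had 69 to 432 counts, against 2 to 233 counts for Ttr. In the enrichment table it had 703, 249 and 394 CPM in HC EE, against 5.56, 4.62 and 94.7 CPM in HC VEH. In the PFC its levels were 9.36, 364 and 67.0 CPM in EE, against 7.34, 149 and 192 CPM in VEH.

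Kl encodes klotho, a co-receptor for fibroblast growth factors that is also shed as a soluble protein. In the minocycline table it ran from 9.04 to 52.2 CPM in the 8 HC libraries (median 23.0) and was 0 in 4 of the 7 PFC libraries, with 17.2 CPM in PFC CUMS_M replicate 3. Folr1, the folate receptor that carries folate across the epithelium, ran from 4.67 to 21.3 CPM in the HC (median 10.5) and was 0 in every PFC library except PFC CUMS_M replicate 3 (4.45 CPM). Folr1 had 1241 counts over the 8 HC libraries, against 51 counts over the PFC libraries, all in that 1 library.

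The channel genes had the same pattern. Kcne2, an accessory subunit that modulates potassium channels, ran from 2.57 to 10.04 CPM in the 8 HC libraries (median 5.34). It had 0 counts in 6 of 7 PFC libraries and 4.01 CPM in PFC CUMS_M replicate 3. Kcnj13, the inward rectifier potassium channel Kir7.1, ran from 3.71 to 14.7 CPM in the HC (median 7.42), against 0 to 0.0967 CPM in 6 PFC libraries and 5.49 CPM in PFC CUMS_M replicate 3. Clic6, a member of the chloride intracellular channel family, ran from 10.4 to 39.0 CPM in the HC (median 15), against 0 to 0.0967 CPM in those 6 PFC libraries and 11.1 CPM in PFC CUMS_M replicate 3. The water channel Aqp1 ran from 3.78 to 16.2 CPM in the HC (median 8.16), against 0 to 1.11 CPM in those 6 and 4.45 CPM in PFC CUMS_M replicate 3. Otx2, the transcription factor needed for choroid plexus development, was the lowest, at 0.172 to 4.81 CPM in the HC (median 1.96), against 0 to 0.616 CPM in those 6 and 2.27 CPM in PFC CUMS_M replicate 3. Its lowest HC library, HC NAIVE replicate 2 with 2 counts, lay below PFC NAIVE replicate 2 with 5 counts, while the other 8 genes were high in that HC library.

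In the enrichment table these 7 genes split the libraries in the same way under both region labels. In the HC Kl ran from 0 to 50.2 CPM (median 14.3 over 6 libraries), and in the PFC from 0 to 28.2 CPM (median 7.55). Folr1 ran from 0.044 to 9.85 CPM in the HC (median 3.01) and from 0 to 7.44 CPM in the PFC (median 2.13). Kcne2 had 0 counts in 2 of 6 HC libraries and in 2 of 6 PFC libraries, and reached 8.23 CPM in HC EE replicate 1 and 4.95 CPM in PFC EE replicate 2. Those 2 libraries also had the highest Clic6 of their regions, 46.8 CPM in HC EE replicate 1 and 24.1 CPM in PFC EE replicate 2, and the highest Aqp1, at 8.51 CPM in HC EE replicate 1 and 7.68 CPM in PFC EE replicate 2. Kcnj13 ran from 0.0471 to 9.30 CPM in the HC and from 0.198 to 3.60 CPM in the PFC. Otx2 ran from 0 to 5.50 CPM in the HC (0 in 2 of 6 libraries) and from 0 to 3.70 CPM in the PFC (0 in 2 of 6).

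**Figure D2:**
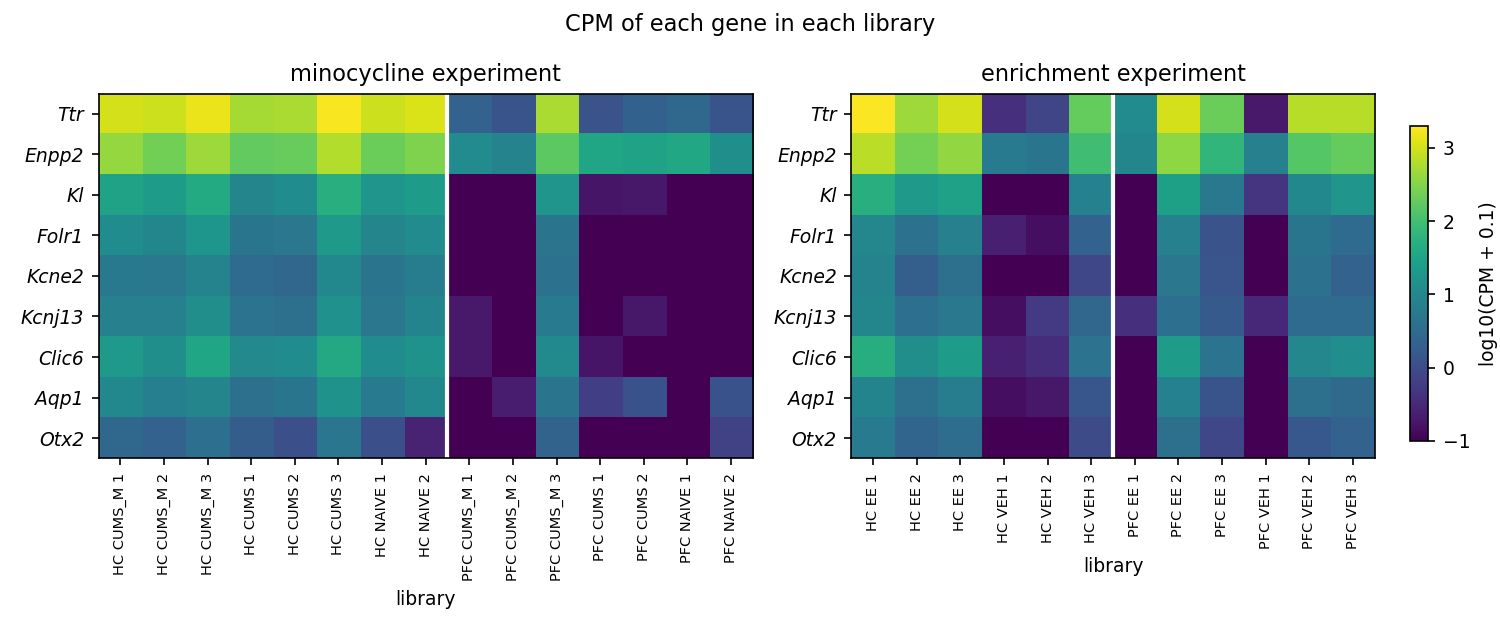
Level of each gene (rows) in each library (columns) as log10(CPM + 0.1), with HC libraries left of the white line and PFC libraries right of it, for the minocycline and enrichment experiments. The genes are bright or dark together within a library, and PFC CUMS_M replicate 3 resembles the HC libraries of its experiment, with 566 CPM of Ttr.

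The genes kept similar proportions in the 17 libraries with at least 1000 counts over the 9. Per 1000 Ttr counts there were 342 Enpp2 counts at the median (range 215 to 536), 26.5 Kl counts (14.4 to 44.5) and 20.03 Clic6 counts (13.1 to 28.2). The median was 8.66 for Folr1 (4.45 to 12.1), 7.21 for Kcnj13 (3.38 to 13.1), 7.14 for Aqp1 (4.33 to 9.54) and 5.18 for Kcne2 (3.04 to 7.09). The highest ratio was 2.15 to 3.89 times the lowest for these 7 genes, while their CPM in the same libraries differed by 9.37 to 18.1 times. Otx2 was the exception, with a ratio of 2.96 at the median and 0.154 to 5.12 over libraries, the lowest in HC NAIVE replicate 2. In PFC CUMS_M replicate 3 Ttr made up 72.3% of the 9 genes' counts, against 60.9 to 78.9% over the 17 libraries. The 17 libraries come from both count tables, which differ in depth, and the ratios are given without a test.

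**Figure D3:**
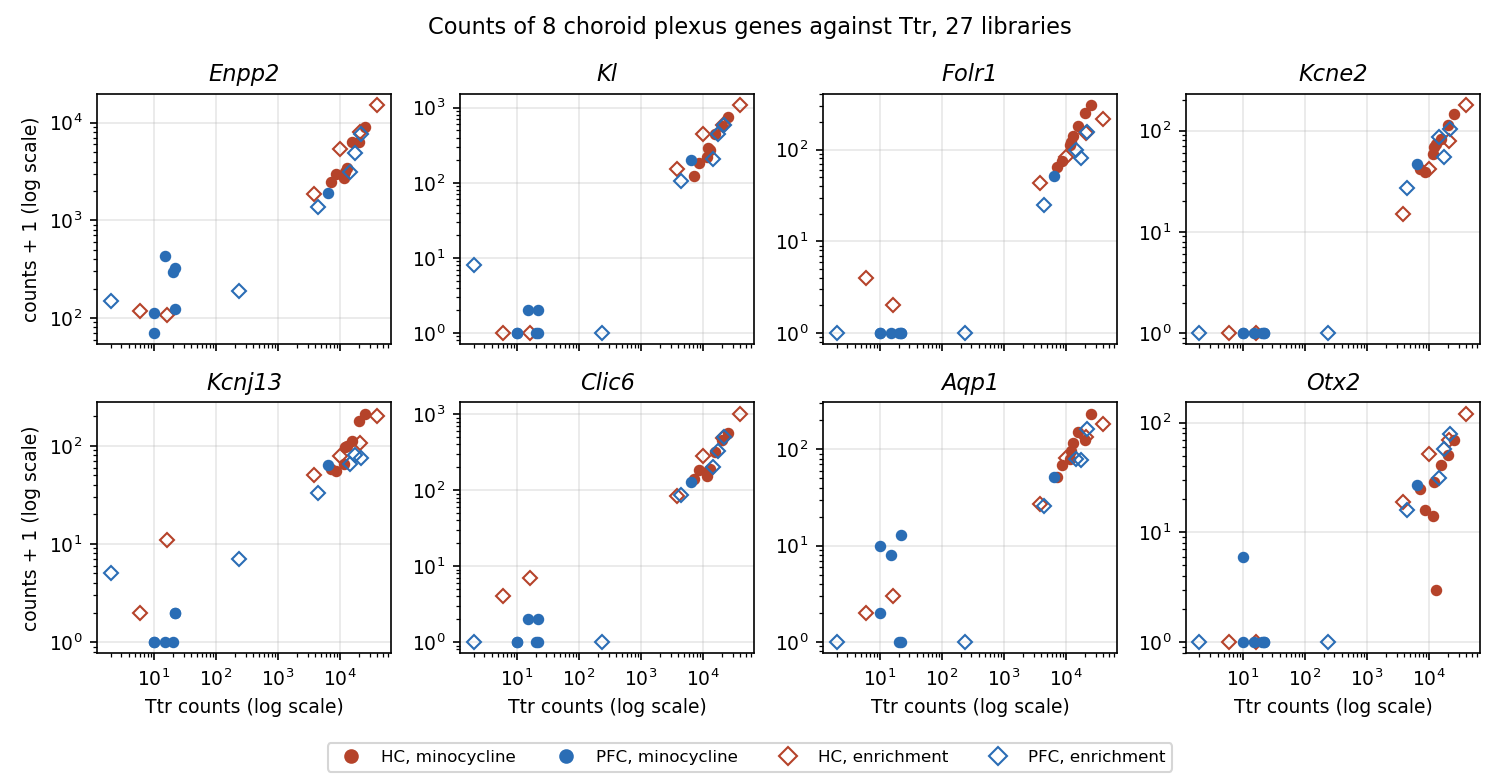
Counts plus 1 of 8 genes against counts of Ttr in the 27 libraries (both axes log), by region label (colour) and experiment (filled circles, minocycline; open diamonds, enrichment). The 17 libraries with at least 1000 counts over the 9 genes form a diagonal band under both region labels, and the other 10 sit at the lower left, where Kcne2 has 0 counts in 10 of 10.

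Levels between genes were compared per kilobase of exon over the same 17 libraries. Ttr was highest with a median of 783 CPM per kb (164 to 1567), and Enpp2 followed with 41.9 CPM per kb (11.6 to 122). The ranges of this pair did not overlap. Kcnj13 (3.97 CPM per kb), Clic6 (3.36), Folr1 (3.20), Kcne2 (2.34), Aqp1 (2.34) and Kl (2.22) came next. Their ranges overlapped one another, so their order was not resolved by the ranges. Over these 6 genes the lowest library was at 0.404 CPM per kb (Kcne2) and the highest at 11.9 (Clic6). Otx2 had the lowest median, 0.518 CPM per kb, and its range (0.0407 to 1.30) overlapped the lower ends of the ranges of these 6 genes. The genes were measured in the same libraries and moved together, so ranges over libraries hide the order within a library. Within each of the 17 libraries Otx2 was below each of these 6 genes per kb.

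The first comparison asked whether the HC and PFC labels differ in these genes in the minocycline experiment, as the mean of the 3 treatment groups with equal weight. With edgeR's quasi-likelihood test, 7 of the 9 genes were higher in the HC at an adjusted p under 0.05, where 5.1% of all 14579 genes were called and 3.43% were called higher. Ttr rose by 6.98 ± 1.42 on the log2 scale (SE, edgeR adjusted p = 0.0258), Clic6 by 7.18 ± 1.48 (0.0320) and Kcnj13 by 6.25 ± 1.32 (0.0320). Folr1 rose by 7.64 ± 1.53 (edgeR adjusted p = 0.0344), Kcne2 by 6.70 ± 1.47 (0.0404), Enpp2 by 3.09 ± 0.714 (0.0419) and Kl by 7.11 ± 1.63 (0.0461). Aqp1 (3.19 ± 0.809, edgeR adjusted p = 0.0533) and Otx2 (3.56 ± 1.14, adjusted p = 0.1004) did not pass. The median over the 9 genes was 6.70, against 0.02 over all tested genes. Several PFC groups had no counts of Folr1 and Kcne2, so the fitted values of such genes depend on the prior count of the model and are no bounds. With every library included, 2 of the 9 genes, Folr1 and Enpp2, were higher in each HC library than in each PFC library, as were 0.761% of all genes.

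Without PFC CUMS_M replicate 3 all 9 genes were called higher in the HC (4.44% of genes were), with a log2 difference of 9.25 ± 0.522 for Ttr (edgeR adjusted p = 1.7e-05) and 5.64 ± 0.970 for Otx2 (0.00155). The number called depended on single libraries in the other direction too. It fell to 0 without either PFC CUMS replicate, either PFC NAIVE replicate or either HC NAIVE replicate, each of which leaves that group with 1 library that is assumed to vary like the others. It was 1 without any 1 of the HC CUMS_M replicates and 3, 2 and 3 without HC CUMS replicates 1, 2 and 3. It was 8 without PFC CUMS_M replicate 1 and 6 without replicate 2, and DESeq2 called 8 (8.05% of genes). Apart from the fit without PFC CUMS_M replicate 3, the share of all genes called is not given where a library was left out. There, a loss of calls in these genes alone cannot be told from a loss over all genes.

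**Figure D4:**
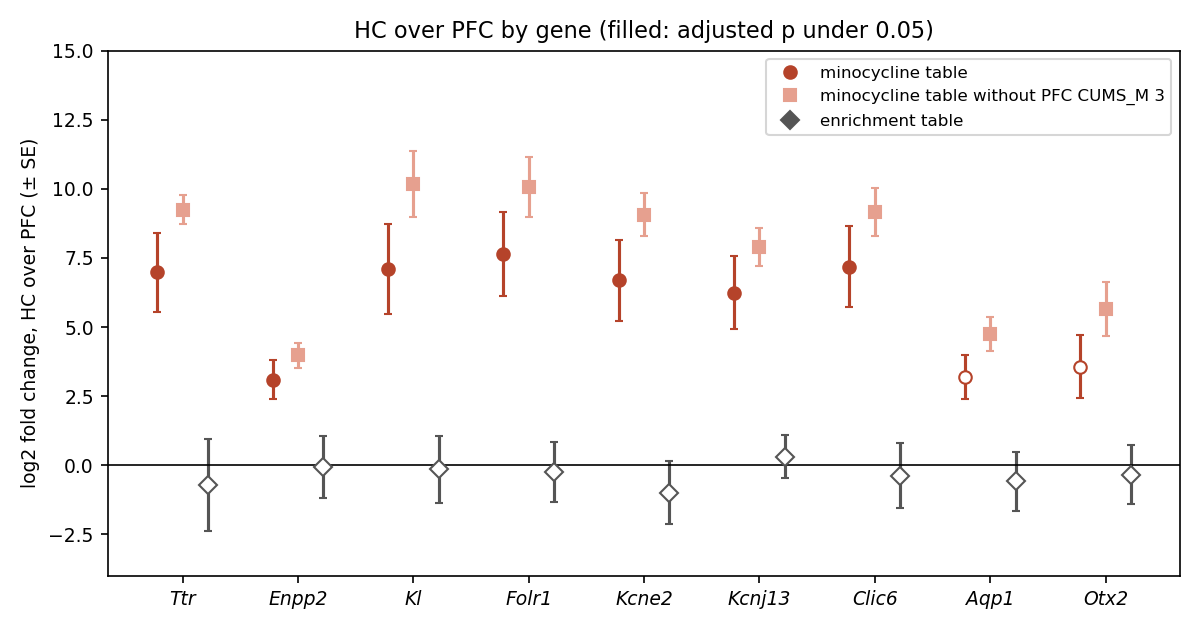
Log2 fold change of HC over PFC with its SE for each gene in the minocycline table, the minocycline table without PFC CUMS_M replicate 3, and the enrichment table; filled symbols passed an edgeR adjusted p of 0.05. The minocycline values lie between 3.09 and 7.64, and the enrichment values between -1.0 and 0.31 with none passing.

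Within single treatments no gene of the 9 passed. HC CUMS_M over PFC CUMS_M had 0 of 9 called by edgeR (0.94% of genes were) and 0 by DESeq2, with 2 of 9 at an unadjusted p under 0.05. Without PFC CUMS_M replicate 3 this count was 8 of 9 (1.41% of genes were called higher), with Ttr at 9.41 ± 0.905 on the log2 scale (edgeR adjusted p = 0.00117), and Kl did not pass (adjusted p = 0.0650). HC CUMS over PFC CUMS had 0 called by edgeR (0.37%), 9 at an unadjusted p under 0.05 and 4 by DESeq2 (0.789%). HC NAIVE over PFC NAIVE had 0 called by edgeR (0.604%), 8 at an unadjusted p under 0.05 and 5 by DESeq2 (2.65%).

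The libraries of these pairs hardly overlapped all the same. Every HC CUMS_M library was above every PFC CUMS_M library for 8 of 9 genes (11.0% of all genes), every HC CUMS library above every PFC CUMS library for 9 of 9 (12.6%), and every HC NAIVE library above every PFC NAIVE library for 8 of 9 (23.3%). Ttr averaged 964 ± 713 CPM in HC CUMS (SD, n = 3) and 1.60 ± 0.627 CPM in PFC CUMS (SD, n = 2), a ratio of 604. The ratio was 346 without HC CUMS replicate 3 and 835 without PFC CUMS replicate 2. Ttr averaged 1024 ± 135 CPM in HC NAIVE and 1.92 ± 0.977 CPM in PFC NAIVE (SD, n = 2 each), a ratio of 533. That ratio was 830.4 without PFC NAIVE replicate 1 and 391.7 without PFC NAIVE replicate 2. Against groups with 0 counts only lower bounds can be given, from a floor of 3 counts over the group. Folr1 was at least 81.8-fold higher in HC CUMS than in PFC CUMS and at least 54.3-fold higher in HC NAIVE than in PFC NAIVE, and Kcne2 at least 41.3-fold and 28.1-fold higher in the same pairs. These bounds rest on single libraries. Folr1 had 21.3 CPM in HC CUMS replicate 3, against 4.67 to 5.0 CPM in the other 2 HC CUMS libraries, and without it the bounds in HC CUMS over PFC CUMS were 38.3-fold for Folr1 and 22.2-fold for Kcne2. A PFC group with 1 library left out has a higher floor, and the bounds of that comparison were then 37.1-fold and 44.7-fold for Folr1 and 18.7-fold and 22.6-fold for Kcne2 without PFC CUMS replicates 1 and 2. In HC NAIVE over PFC NAIVE they were 27.9-fold and 26.4-fold for Folr1 and 14.4-fold and 13.6-fold for Kcne2 without PFC NAIVE replicates 1 and 2. Clic6 had 881 counts in HC CUMS and 1 in PFC CUMS, a ratio of 491 with a counting interval of 87.9 to 19400. The ratio was 270.3 without HC CUMS replicate 3 and 268 without PFC CUMS replicate 2, and without PFC CUMS replicate 1, which held the 1 count, Clic6 was at least 73.8-fold higher.

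In the enrichment experiment the region labels did not separate these genes. HC over PFC, averaged over EE and VEH, had 0 of 9 genes called by edgeR, 0 by DESeq2 and 0 at an unadjusted p under 0.05, where 0.0% of the 15921 genes were called. The log2 difference was -0.73 ± 1.67 for Ttr and ran from -1.0 ± 1.14 for Kcne2 to 0.31 ± 0.786 for Kcnj13, so that the standard errors were wide. The sign was not stable. Ttr was at 0.21 without PFC EE replicate 2 and at 0.87 with the replicate number as a block, and Kcnj13 was at -0.69 without HC VEH replicate 3. The median Ttr level was 330 CPM in the 6 HC libraries (0.283 to 1859) and 455 CPM in the 6 PFC libraries (0.0991 to 1065). Within treatments, HC EE over PFC EE had log2 differences of 1.08 (Aqp1) to 1.72 (Kcnj13), and HC VEH over PFC VEH of -3.16 (Kcne2) to -1.10 (Kcnj13). In both, 0.0% of genes and 0 of the 9 passed by edgeR or DESeq2, and 0 of the 9 had an unadjusted p under 0.05.

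The treatment comparisons asked whether minocycline, stress or enrichment went with a change in these genes. HC EE over HC VEH was the one treatment comparison in which the libraries of all 9 genes did not overlap. Ttr averaged 1123 ± 700 CPM in HC EE and 65.0 ± 112 CPM in HC VEH, and Kcne2 averaged 4.65 CPM in HC EE and 0.238 CPM in HC VEH (n = 3 each). All 9 genes were higher in each HC EE library than in each HC VEH library, as were 9.66% of all genes. The log2 difference ran from 2.59 ± 1.15 (Kcnj13) to 4.32 ± 1.79 (Kcne2), with a median of 3.70. The HC VEH means of Ttr and Kcne2 came almost wholly from replicate 3. Without it Ttr averaged 0.493 CPM in HC VEH and Kcne2 had 0 counts there. The log2 difference then ran from 4.57 (Kcnj13) to 12.5 (Kl), fitted values that are no bounds where HC VEH is at 0, with 9 of 9 at an unadjusted p under 0.05 and 0 called (edgeR adjusted p 0.272 to 0.445). None passed with all libraries either (edgeR adjusted p 0.437 to 0.686, with 0.0% of genes called), an unadjusted p under 0.05 was reached by 4, and by DESeq2 0 were called.

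Markers of other cells were compared between the same groups, and none of them passed the test, in which 0.0% of all genes were called. The summed level of 10 oligodendrocyte genes was 485 to 874 CPM in HC EE, against 245 to 317 CPM in HC VEH, with 10 of 10 genes higher and 0 called. The 10 astrocyte genes summed to 651 to 889 CPM in HC EE, against 438 to 554 CPM in HC VEH (10 of 10 higher, 0 called). The 10 genes of border-associated macrophages, the CD11b+ macrophages of the choroid plexus, meninges and vessels, summed to 613 to 844 CPM in HC EE, against 365 to 474 CPM in HC VEH (10 of 10 higher, 0 called). The 8 stromal genes summed to 9.86 to 16.4 CPM in HC EE, against 5.81 to 9.38 CPM in HC VEH (5 of 6 tested genes higher, 0 called). For these 4 lists the sums of HC EE and HC VEH did not overlap, and for the following 4 they did. The 10 microglial genes summed to 36480 to 43960 CPM in HC EE, against 37850 to 45960 CPM in HC VEH. The 10 endothelial and pericyte genes summed to 125.5 to 157 CPM in HC EE, against 92.9 to 147 CPM in HC VEH, and the 10 neuronal genes to 25.4 to 40.6 CPM in HC EE, against 23.4 to 50.7 CPM in HC VEH. The 10 ependymal genes summed to 16.5 to 22.01 CPM in HC EE, against 10.3 to 18.4 CPM in HC VEH (5 of 6 tested genes higher, 0 called), and of them Sntn had 0 counts in 8 of the 12 libraries. Hdc had the highest count of this list in a library, 436, so the ependymal sum need not follow its other genes. The share of all genes that were higher in HC EE is not given beside these counts. Genes of a list come from the same libraries and are not independent. The part of these cell types in the difference was not tested.

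**Figure D5:**
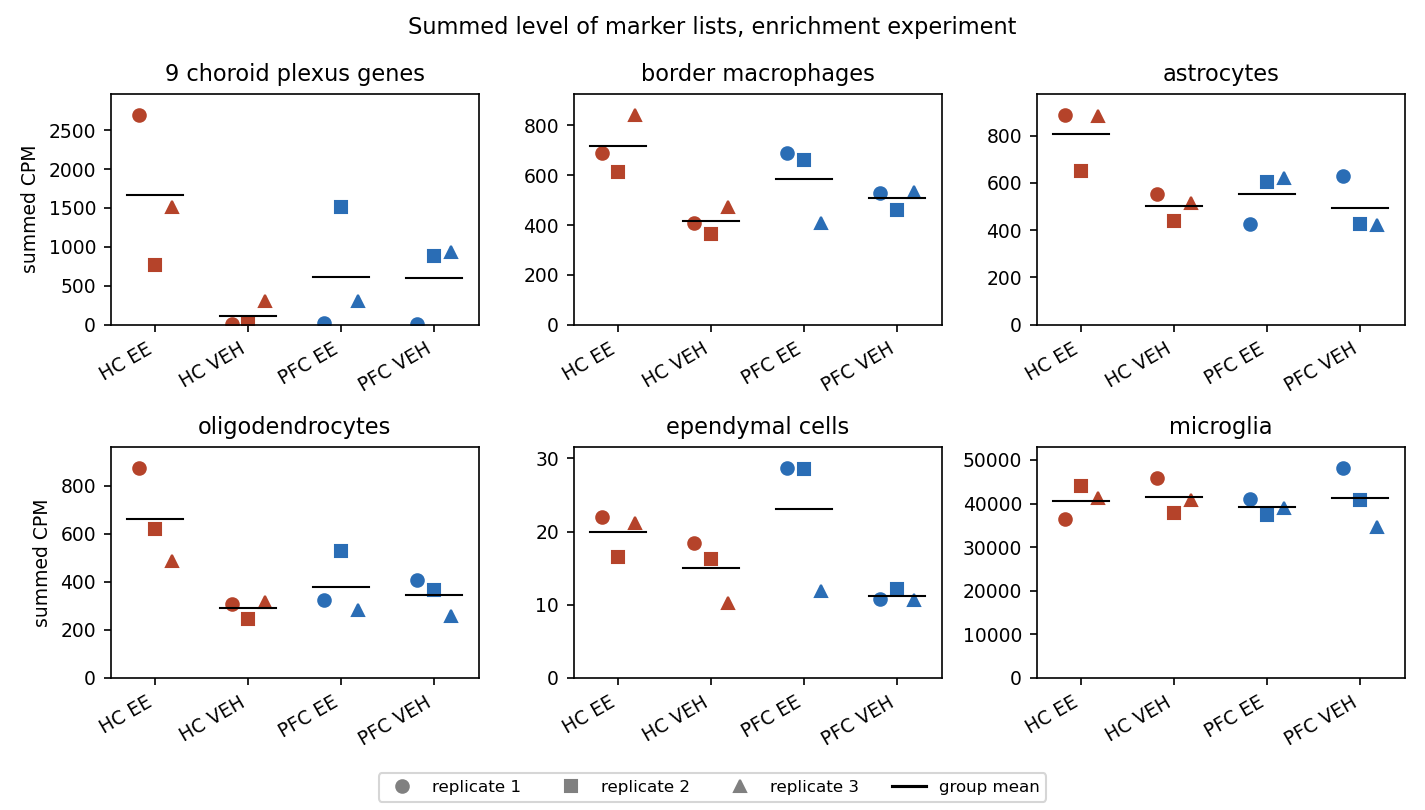
Summed CPM of the 9 choroid plexus genes and of 5 marker lists in each library of the enrichment experiment (linear axes from 0; symbols are replicates, bars are group means). The oligodendrocyte, astrocyte and border macrophage sums of HC EE lie above those of HC VEH, while microglial sums stay between 34730 and 48200 CPM.

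In the PFC of the same experiment EE and VEH overlapped for every gene. The log2 difference of PFC EE over PFC VEH ran from -0.23 (Kcnj13) to 0.40 (Aqp1), and from -0.13 (Kcnj13) to 0.45 (Enpp2) with the replicate number as a block, with 0 of 9 called by edgeR (0.0% of genes), 0 by DESeq2 and 0 at an unadjusted p under 0.05. The difference between the EE effects, HC minus PFC, was 4.21 ± 3.45 for Ttr and 4.32 ± 2.30 for Kcne2 on the log2 scale. Neither passed (edgeR adjusted p = 0.998 for both), 0.0% of genes were called, and 0 of the 9 genes had an unadjusted p under 0.05 or passed in DESeq2. So an effect of enrichment on these genes that differs between regions was not shown.

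In the minocycline experiment no treatment contrast in either region had a gene of the 9 called by edgeR. The 3 comparisons of a region share libraries pairwise, and each is given on its own. PFC CUMS_M over PFC CUMS (0.0206% of genes called) had 2 of 9 at an unadjusted p under 0.05, Ttr at 6.92 ± 2.62 and Otx2 at 6.26 ± 2.75, and DESeq2 called Ttr alone (0.501%). Without PFC CUMS_M replicate 3 Ttr was at 0.12 ± 1.33, and Otx2 had 0 counts in every remaining library of both groups. Without PFC CUMS_M replicate 3 Enpp2 was at -1.65 ± 0.812 and Aqp1 at -3.68 ± 1.72, against 0.995 ± 1.18 and 0.97 ± 1.47 with it. PFC CUMS_M over PFC NAIVE (0.0892%) had Ttr at 6.64 ± 2.67, the 1 gene of 9 at an unadjusted p under 0.05, and DESeq2 called Ttr and Kl (1.01%). Without PFC CUMS_M replicate 3 Ttr was at -0.17 ± 1.39, and Kl had 0 counts in every remaining library of both groups. PFC CUMS over PFC NAIVE (0.816%) had 0 of 9 at an unadjusted p under 0.05, and DESeq2 called Kl (2.39%), which had 2 counts in PFC CUMS and 0 in PFC NAIVE.

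In the HC the minocycline and stress groups overlapped for nearly all of these genes. The log2 difference of HC CUMS_M over HC CUMS (0.00686% of genes called) ran from 0.11 (Aqp1) to 0.36 (Kl). That of HC CUMS over HC NAIVE (0.0%) ran from -0.09 (Ttr) to 0.53 (Clic6), apart from Otx2 at 2.05 ± 1.38. HC CUMS_M over HC NAIVE (0.0%) ran from 0.13 (Aqp1) to 0.67 (Clic6), apart from Otx2 at 2.21 ± 1.38, the 1 gene of 9 that was higher in each HC CUMS_M library than in each HC NAIVE library, as were 9.54% of all genes. The low Otx2 count of HC NAIVE replicate 2 enters both Otx2 values, which without that library were 1.32 ± 1.73 for HC CUMS over HC NAIVE and 1.47 ± 1.74 for HC CUMS_M over HC NAIVE. None of the 9 had an unadjusted p under 0.05 in these 3 comparisons, and DESeq2 called 0, giving no adjusted p for 7 of the 9 in HC CUMS_M over HC CUMS. The difference between regions of the CUMS_M effect (0.00686%) was -6.65 ± 2.96 for Ttr and 0.13 ± 1.42 without PFC CUMS_M replicate 3, with 0 of the 9 genes called by edgeR or DESeq2 and 0 at an unadjusted p under 0.05. DESeq2 gave no adjusted p for 4 of the 9 there. The difference of the CUMS effect (0.0%) had 0 of 9 called by edgeR, 0 at an unadjusted p under 0.05 and 1, Kl, by DESeq2 (0.205%).

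Further genes of the choroid plexus epithelium, listed by function, were compared between the region labels of the minocycline experiment. Their lists were chosen with earlier results of these data known, so they are not independent support. Calls for these lists are given only from the fit of all libraries, PFC CUMS_M replicate 3 among them. For the 9 genes, calls in the same comparison depended on single libraries. Of the 9 secreted or carrier genes tested, 6 were called higher in HC over PFC and 0 lower, where 3.43% of all genes were called higher and 1.67% lower (median log2 difference 2.66, against 0.02 over all genes). Wfdc2, a secreted protease-inhibitor-like protein, rose by 5.82 ± 1.03 (edgeR adjusted p = 0.00299), the secreted signalling antagonist Sostdc1 by 7.04 ± 1.31 (0.0206) and the growth-factor binding protein Igfbp2 by 2.66 ± 0.569 (0.0306). Sostdc1 was at 2.89 to 9.89 CPM in the 8 HC libraries and had 0 counts in every PFC library except PFC CUMS_M replicate 3 (2.97 CPM). Igfbp2 was at 17.0 to 50.0 CPM in the HC, against 0 to 7.51 CPM in 6 PFC libraries and 12.7 CPM in PFC CUMS_M replicate 3.

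Of the 17 transporters, channels and receptors tested, 13 were called higher (3.43% of all genes were) and 0 lower. Slc29a4, a transporter of monoamines and nucleosides, rose by 4.06 ± 0.706 (edgeR adjusted p = 0.00745), the metalloreductase Steap1 by 5.55 ± 1.12 (0.00876), the prolactin receptor Prlr by 6.76 ± 1.16 (0.0116) and the sulfate transporter Slc13a4 by 4.89 ± 0.916 (0.0134). The 4 that did not pass were Slc12a2, Slc39a4, Slc31a1 and Car14. Of 10 genes of junctions, keratins and cytoplasmic proteins, 6 were called higher and 0 lower, beside the same 3.43% of all genes. The keratins Krt18 (5.05 ± 0.755, edgeR adjusted p = 0.000494) and Krt8 (5.68 ± 1.03, 0.00349), E-cadherin Cdh1 (3.64 ± 0.747, 0.00798) and the retinol dehydrogenase Rdh5 (1.46 ± 0.307, 0.0086) were among them. Of 3 transcription factor genes tested, Foxj1, the factor of motile cilia, passed (2.49 ± 0.589, edgeR adjusted p = 0.0217). Of these lists, 0 genes were called in HC over PFC of the enrichment experiment. There 0.0% of all 15921 genes were called, so that count is not particular to these lists.

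Markers of other cells also differed between the region labels of the minocycline experiment. In that comparison 3.43% of all genes were called higher and 1.67% lower. Calls for these lists too are given only from the fit of all libraries. Of 10 endothelial and pericyte genes 5 were called higher in the HC, with sums of 129 to 271 CPM in the HC, against 75.5 to 219 CPM in the PFC. Of 10 astrocyte genes 3 were called higher (286 to 555 CPM in the HC, against 229 to 780 CPM in the PFC). Of 7 ependymal genes tested 2 were called higher, Dynlrb2 and Rsph1 of the motile cilium. The ependymal list summed to 8.31 to 23.7 CPM in the HC, against 13.4 to 29.2 CPM in the PFC. In that list Hdc and Cfap126 reached 205 and 82 counts in a library, against 15 for Dynlrb2 and 38 for Rsph1. The ependymal sum therefore need not follow the 2 called genes. Of 10 neuronal genes 3 were called lower (19.1 to 27.6 CPM in the HC, against 26.5 to 96.7 CPM in the PFC). Of the stromal list 4 of 8 genes were tested and 0 called, and its sum was 6.89 to 17.2 CPM in the HC, against 4.07 to 9.94 CPM in the PFC. The stromal gene Lum had 0 counts in 14 of 15 libraries and the ependymal gene Sntn in 13 of 15. Of the border macrophage, oligodendrocyte and microglial lists, of 10 genes each, 0 genes were called. Oligodendrocytes also express Enpp2, and their 10 genes summed to 415 to 1209 CPM in the HC, against 263 to 911 CPM in the PFC, and to 263 to 398 CPM in the 3 PFC CUMS_M libraries, where Enpp2 reached 168 CPM in replicate 3. The part of these cell types in the region difference was not tested.

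The genes whose level followed the summed level of the 9 most closely were named from outside all lists. Among 14455 genes in the minocycline table and 15787 in the enrichment table, 37 genes were among the 100 most alike in both. Vat1l led the minocycline table (Spearman rho 0.976 over 15 libraries, and 0.951 over the 12 libraries of the enrichment table). The next shared genes were Stk39, a kinase that acts on cation-chloride cotransporters (0.975 and 0.923), and the phosphatase inhibitor Ppp1r1b (0.964 and 0.930). After them came the calcium pump Atp2b3 (0.95 and 0.951), the junction protein Cgnl1 (0.936 and 0.916) and 2900040C04Rik (0.935 and 0.937). From the enrichment table came Oca2 (0.975 there and 0.865 in the minocycline table), Mfrp (0.972 and 0.872), Cntn1 (0.965 and 0.861) and the collagen chain Col8a1 (0.963 and 0.927). Several of the 10 leading genes of each table were not among the 100 most alike of the other table. Erbb4, first in the enrichment table with 0.979, was among them, with 0.289 in the minocycline table. These correlations describe libraries that fall into high and low sets, and carry no test.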

How the data were processed

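RNA of sorted CD11b+ cells from 27 samples was sequenced from strand-specific polyA libraries, per the design text. The deposited tables, 1 per experiment, hold raw counts per gene; per the submitters' processing notes the authors used Trimmomatic 0.36, STAR 2.6.1b, Picard 2.17.1, featureCounts 1.5.3 and DESeq2 1.24.0 with mm10/GRCm38. The annotation release and strand setting were not given in the sources used here. Totals ran from 7.87 to 15.3 M counts (minocycline) and from 19.5 to 23.9 M (enrichment).

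Identifiers were matched to GENCODE M21 symbols (53326 of 53412 and 55154 of 55421). Genes kept by filterByExpr (minimum count 10, minimum total 15) numbered 14579 and 15921. Libraries were TMM-scaled and fitted per table in edgeR 4.0.16 (robust quasi-likelihood F-test, R 4.3.3) with 1 mean per region and treatment group. Benjamini-Hochberg adjustment ran over every tested gene of a contrast, with a threshold of 0.05, and SE is the log2 fold change over the square root of F. DESeq2 1.42.0 was an alternative, beside other scaling, no filter, a replicate block, a fit restricted to 2 groups, and leave-one-out fits. The fit was tested on simulated data. Likeness used log2 CPM with a prior count of 2.

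The labels do not pair samples. In the PFC of the enrichment table EE and VEH libraries with the same number had correlated deviations (r = 0.359, 0.198 and 0.208), a sign of pairing that comes from the data. The values for that comparison are from the fit without the block, and those with the block are beside them; 0 of the 9 genes were called in either. The genes and lists were chosen with earlier results of these data known. All 9 genes are named. From the other choroid plexus lists up to 4 called genes by smallest p are named. The genes most alike are the 10 of highest rho per table that are among the 100 highest of both tables. Of the genes these rules select, 2 are left out of the text. Genes outside these rules are named as chosen after their values were seen, or where a count of 5 or fewer needs its members.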

Additional observations from a re-analysis of the deposited data

Results flagged for a closer look

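In the PFC of the minocycline experiment PFC CUMS_M replicate 3 stood apart from the other 6 libraries, by the gap to the nearest of them, for all 9 genes and for their sum. Its summed level was 782 CPM, against 9.53 to 40.6 CPM in the others. Its level was 566 CPM for Ttr (1.16 to 2.61 CPM in the others), 168 CPM for Enpp2 (8.22 to 38.0), 17.2 CPM for Kl (0 to 0.0928), 11.1 CPM for Clic6 (0 to 0.0967) and 5.49 CPM for Kcnj13 (0 to 0.0967). It was 4.45 CPM for Folr1, which was 0 in the others, 4.45 CPM for Aqp1 (0 to 1.11), 4.01 CPM for Kcne2, which was 0 in the others, and 2.27 CPM for Otx2 (0 to 0.616). Chance would mark about 1 in 20 such sets if values followed a normal distribution, and 40 sets were looked at. Folr1 and Kcne2 were 0 in the other 6 libraries and levels were skewed, so that rate need not hold here. The 9 genes are not independent, so these results are 1 observation about 1 library.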

How the results depend on the processing

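The number of the 9 genes called by edgeR in HC over PFC of the minocycline table (7) was between 0 and 9 when single libraries were left out, and in HC CUMS_M over PFC CUMS_M (0) between 0 and 8. DESeq2 called 5 in HC NAIVE over PFC NAIVE, 4 in HC CUMS over PFC CUMS, 1 in PFC CUMS over PFC NAIVE, 1 in PFC CUMS_M over PFC CUMS, 2 in PFC CUMS_M over PFC NAIVE and 1 in the CUMS effect of HC minus PFC, where edgeR called 0. A fit of only the groups compared called 6 in HC NAIVE over PFC NAIVE. With no filter on low counts 1 was called in HC CUMS over PFC CUMS and 1 in PFC CUMS_M over PFC CUMS. The cause of these changes was not tested. The share of all genes called is not given for the fit of only the groups compared or the fit with no filter. It is also not given where single libraries other than PFC CUMS_M replicate 3 were left out. The counts of those fits therefore cannot be set against all genes.

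With the replicate number as a block, Ttr in HC over PFC of the enrichment table was at 0.87 on the log2 scale (-0.73 without it), and Aqp1 and Enpp2 in PFC CUMS_M over PFC CUMS were at -0.38 and -0.60. The block called 8 of the 9 genes in HC over PFC of the minocycline table, with no share of all genes given, and changed no other count of calls. Leaving out single libraries gave -4.23 to 0.21 for Ttr and -0.69 to 0.78 for Kcnj13 in HC over PFC of the enrichment table. In PFC CUMS_M over PFC CUMS it gave -3.68 to 1.55 for Aqp1 and -1.65 to 1.5 for Enpp2. The size factors of DESeq2 changed no count of calls.

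Without Ttr 15 of 27 summed levels moved by more than the SD of their group, and with total counts as library size 1 did. A fit of only the groups compared was not run for the 3 contrasts that use all groups. Genes at 0 counts were not detectable at this depth, which is not absence.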
